A study of Mus musculus with 9 samples.

Results

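The transcriptional core and feedback arm of the integrated stress response was followed through RNA sequencing of mouse embryonic stem cells, as 10 named genes of the 48440 in the count tables: Atf4, Ddit3, Atf3, Atf5, Cebpb, Ppp1r15a, Trib3, Chac1, Nupr1 and Sesn2. They are named regulators and feedback genes linked to ATF4 and CHOP, and were selected on their differences between the Mock, Auxin and Reintroduction libraries as known from earlier results. For that reason their levels and changes are descriptions and carry no p-value.

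The integrated stress response begins when a kinase (PERK, GCN2, PKR or HRI) phosphorylates the translation factor eIF2, which lowers protein synthesis in general while raising translation of a few messengers, above all that of ATF4. ATF4 is a basic leucine zipper (bZIP) transcription factor that, with C/EBP family partners, switches on genes for amino acid uptake and synthesis and further factors, among them CHOP, the product of Ddit3. The response is closed by feedback, since GADD34 (Ppp1r15a) directs a phosphatase to eIF2 and TRIB3 restrains ATF4 and CHOP. In cultured cells, stem cells included, the pathway is known as a response to amino acid shortage, misfolded protein and mitochondrial stress.

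All 9 libraries came from J1 mouse embryonic stem cells of the genotype Suz12-AID. SUZ12, a core subunit of Polycomb repressive complex 2, carries in them an auxin-inducible degron, a tag through which the plant hormone auxin triggers destruction of the protein. The Mock group (3 libraries) carried the tag too, and the Auxin group (3) was kept in 50 µM indole-3-acetic acid for 96 h. The Reintroduction group (3) was kept in 50 µM auxin for 96 h as well and then had it washed out for 4.5 h. The labels do not say whether Mock received a vehicle. Every group grew on gelatin in serum medium with LIF and the inhibitors PD0325901 and CHIR99021. Untagged cells kept in auxin were not analysed here, so an effect of auxin itself and one of SUZ12 loss cannot be told apart. The labels give no washout for Mock, so an effect of the washout handling and one of SUZ12 return cannot be told apart either. The series calls the replicates biological, but the labels name no separate cultures, and tests measure the spread between these libraries. Whether the tagged line was 1 clone is not given in the labels.

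The libraries held 44341283 to 113931419 counted mates. Suz12 RNA, which does not report on a protein degraded by its tag, lay at 125 to 138 CPM in Mock, 122 to 152 in Auxin and 164 to 173 in Reintroduction, where CPM is the library-size-scaled count, with TMM factors. All 10 embryonic stem cell markers were above 1 mean CPM in each group, with a summed level of 6279 to 6451 CPM in Mock, 7742 to 8321 in Auxin and 6047 to 6109 in Reintroduction. Counts were made without strand, and 4 of the 10 stress response genes share exon bases with a gene on the opposite strand. The shared stretch is 312 bases in Cebpb (20.7% of its exon length, with Tmem189), 82 in Atf5 (4.11%), 68 in Ddit3 with Mars (3.97%) and 12 in Ppp1r15a (0.409%).

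The upstream sequences of Chac1, Atf3, Nupr1 and Ppp1r15a are printed first. These genes hold a motif known for factors of the pathway before the RefSeq transcription start. RefSeq promoters of GRCm38.p6 (the mm10 build) matched all 10 genes, with 11 windows of 300 bases because Atf5 has 2 starts in that set. As counted here, Atf3 and Nupr1 extend further upstream than their windows, to 191218039 and 126630861, and those gene ends were not searched. The bases shown are the 250 upstream of the start, on the strand of the gene, with the matched motif in capitals. The window is chr2:119350992-119351241 (plus strand) for Chac1, chr1:191183334-191183583 (minus strand) for Atf3, chr7:126625471-126625720 (minus strand) for Nupr1 and chr7:45526269-45526518 (minus strand) for Ppp1r15a. In Chac1, Atf3 and Nupr1 the capitals are TTGCATCA, the reverse complement of TGATGCAA, and in Ppp1r15a they are TGACGTCA.
Chac1: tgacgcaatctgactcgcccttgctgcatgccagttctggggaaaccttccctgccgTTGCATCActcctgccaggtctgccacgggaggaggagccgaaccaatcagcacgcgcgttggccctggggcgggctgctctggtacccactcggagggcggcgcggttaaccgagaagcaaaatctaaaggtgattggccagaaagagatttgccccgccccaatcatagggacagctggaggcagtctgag
Atf3: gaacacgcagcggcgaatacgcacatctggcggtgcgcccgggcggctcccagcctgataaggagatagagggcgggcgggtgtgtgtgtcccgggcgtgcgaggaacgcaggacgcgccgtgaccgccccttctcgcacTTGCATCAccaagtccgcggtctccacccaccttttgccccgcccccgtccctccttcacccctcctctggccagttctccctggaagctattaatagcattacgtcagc
Nupr1: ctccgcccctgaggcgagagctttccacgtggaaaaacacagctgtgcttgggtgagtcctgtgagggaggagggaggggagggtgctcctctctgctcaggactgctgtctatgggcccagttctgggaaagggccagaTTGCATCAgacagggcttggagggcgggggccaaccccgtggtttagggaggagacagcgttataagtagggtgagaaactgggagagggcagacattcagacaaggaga
Ppp1r15a: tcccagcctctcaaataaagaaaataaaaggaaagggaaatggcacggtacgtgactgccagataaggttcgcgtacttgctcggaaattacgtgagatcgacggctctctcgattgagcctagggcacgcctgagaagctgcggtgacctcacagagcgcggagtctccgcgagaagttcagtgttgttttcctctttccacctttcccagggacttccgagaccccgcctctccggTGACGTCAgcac

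The motif TGATGNAA, the core of the composite element read by ATF4 with a C/EBP partner, was searched on both strands, and TGATGCAA is contained in it. TGATGNAA was found in 4 of the 10 genes (Trib3, Chac1, Atf3 and Nupr1) and in 3.97% of all 32851 RefSeq promoters of the same length. TGATGCAA was found in 3 of the 10 and in 0.895% of all promoters, at 193 bases before the start in Chac1 and at 110 in both Atf3 and Nupr1. The Trib3 match, TTACATCA, begins at position 15, counting the RefSeq start as 1. It spans 152344039 to 152344046 on chromosome 2, which is upstream of the Trib3 start (152344032) in the annotation used for counting. TGACGTCA, the palindromic cAMP response element, was present in Ppp1r15a at 12 bases before the start and in 1.79% of all promoters. The map of motif positions shows that the other 5 genes hold none of these motifs within the window, which says nothing about the factors elsewhere.

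**Figure D1:**
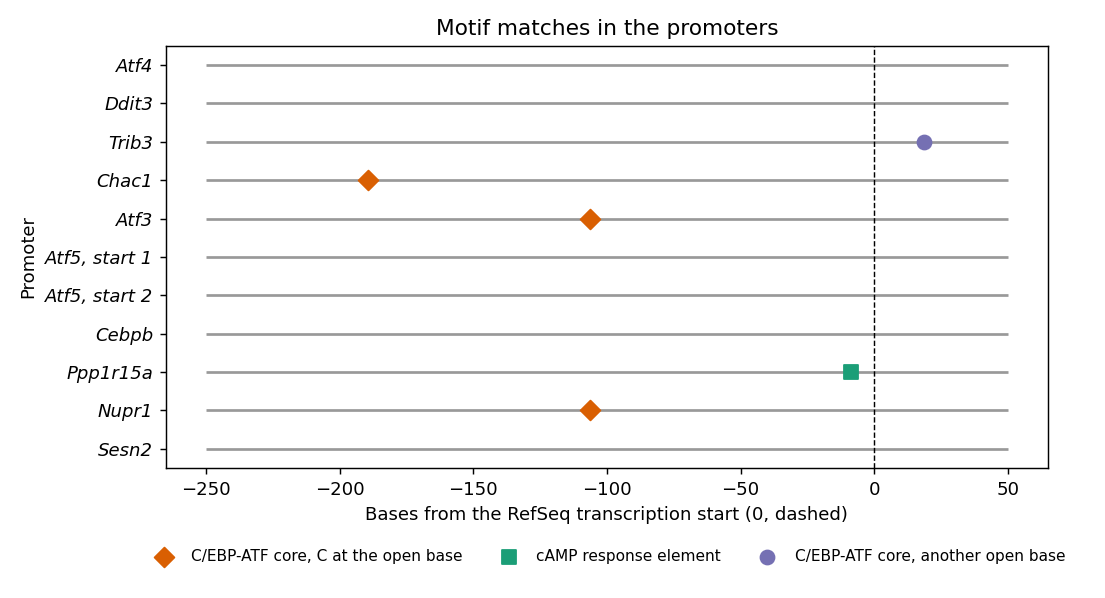
Each line is the RefSeq promoter window of a gene, from 250 bases before to 50 bases after the transcription start (x axis, bases), and each symbol is the centre of a motif match. Chac1, Atf3 and Nupr1 hold the C/EBP-ATF core upstream of the start, Ppp1r15a a cAMP response element next to the start, and Trib3 a core just after it.

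Several of these messengers are known for upstream start codons in the leader, through which eIF2 phosphorylation raises their translation. In the GENCODE M21 principal transcript, 7 of the 10 genes hold an upstream ATG, against 50.5% of 19762 genes with a leader. Leaders ran from 174 bases (Chac1) to 594 (Atf4) in all but Cebpb (107), beside a median of 152 over those genes. The shares were not matched for leader length. Atf4 and Ppp1r15a hold 3 each, Ddit3 and Atf5 hold 2 each, and Atf3, Nupr1 and Sesn2 hold 1 each. An upstream reading frame runs past the main start in Atf4 and Atf5, and in 16.8% of all genes with a leader. RNA counts do not measure translation, so these leaders are given as features of the genes only.

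The bZIP factors come first. Atf4 (ENSMUSG00000042406.7; chromosome 15, 80255184 to 80257540, plus strand), the factor at the head of the response, measured 255, 232 and 237 CPM in the Mock libraries, 564, 675 and 553 under Auxin, and 172, 169 and 173 in Reintroduction. The Auxin libraries were the highest and the Reintroduction libraries the lowest, with no overlap between groups. Its log2 fold change was 1.31 (SE 0.077) in Auxin against Mock, -1.80 (SE 0.078) in Reintroduction against Auxin, and -0.50 (SE 0.076) in Reintroduction against Mock. In these bulk libraries a change in RNA per cell and a change in the number of cells that make it cannot be told apart.

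Ddit3 (ENSMUSG00000025408.15; chromosome 10, 127290774 to 127296288, plus strand) encodes CHOP, a C/EBP family member tied to cell death under lasting stress. It measured 6.57, 6.07 and 6.57 CPM in Mock, 66.5, 77.0 and 66.2 under Auxin, and 5.16, 4.54 and 5.51 in Reintroduction. The 3 Auxin libraries stood far above the other 6, and the Reintroduction libraries lay just under Mock without overlap. In the same order, its log2 fold changes were 3.45 (SE 0.088), -3.78 (SE 0.091) and -0.33 (SE 0.089), and the last lost its call under 3 of the 19 alternatives. Reads over the 68 bases it shares with Mars cannot be assigned by strand. Mars, at 179 ± 5.93 CPM in Mock, changed by 0.34 (SE 0.060), -1.2 (SE 0.061) and -0.85 (SE 0.060), each in the direction of Ddit3. The part of such reads in the Ddit3 changes was not tested.

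Atf3 (ENSMUSG00000026628.13; chromosome 1, 191170296 to 191218039, minus strand), a stress-induced factor that mostly represses, was nearly silent in Mock at 0.708, 0.435 and 0.378 CPM. It measured 30.9, 34.3 and 29.9 CPM in Auxin and 1.27, 1.23 and 0.980 in Reintroduction. Auxin was high in every library and Reintroduction stayed above Mock in every library. Its log2 fold change was 5.92 (SE 0.17) on Auxin, -4.78 (SE 0.16) after washout, and 1.13 (SE 0.21) in Reintroduction against Mock.

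Atf5 (ENSMUSG00000038539.15; chromosome 7, 44812256 to 44816658, minus strand), an ATF4 relative linked to mitochondrial stress, measured 24.9, 22.3 and 23.7 CPM in Mock. Its levels were 345, 405 and 332 CPM in Auxin and 146, 143 and 148 in Reintroduction. The Reintroduction libraries were below Auxin but remained clearly above Mock. Atf5 had log2 fold changes of 3.93 (SE 0.084), -1.31 (SE 0.076) and 2.62 (SE 0.080), and was still 6.16-fold over Mock at the end of the washout. Reads over the 82 bases it shares with Nup62 and Il4i1 cannot be assigned by strand. Nup62 changed by -0.77 (SE 0.063) in Auxin against Mock, the direction opposite to that of Atf5.

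Cebpb (ENSMUSG00000056501.3; chromosome 2, 167688915 to 167690418, plus strand), a C/EBP factor that pairs with ATF4 and CHOP, measured 0.718, 0.543 and 0.699 CPM in Mock, 20.5, 18.8 and 17.0 under Auxin, and 1.25, 1.58 and 1.59 in Reintroduction. All Auxin libraries were high, and every Reintroduction library exceeded every Mock library. These give log2 fold changes of 4.84 (SE 0.14), -3.68 (SE 0.13) and 1.16 (SE 0.15). Tmem189, which overlaps it on the other strand, changed by 0.32 (SE 0.073) in Auxin against Mock.

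Among the feedback genes, Ppp1r15a (ENSMUSG00000040435.12; chromosome 7, 45522916 to 45526268, minus strand), which encodes GADD34, had the smallest difference of the 10 between Auxin and Mock. It measured 46.8, 41.5 and 40.8 CPM in Mock, 63.3, 68.9 and 57.7 under Auxin, and 31.3, 30.3 and 31.1 in Reintroduction. The groups did not overlap, although the lowest Auxin library was not far above the highest Mock library. The log2 fold changes were 0.56 (SE 0.074), -1.03 (SE 0.075) and -0.48 (SE 0.075), and it was the one gene of the 10 that stayed under a 2-fold difference in Auxin against Mock.

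Trib3 (ENSMUSG00000032715.9; chromosome 2, 152337422 to 152344032, minus strand), the pseudokinase that binds ATF4 and CHOP, measured 14.6, 12.5 and 12.1 CPM in Mock, 193, 216 and 193 under Auxin, and 8.25, 8.08 and 8.47 in Reintroduction. Auxin was high in all 3 libraries, and Reintroduction lay under the Mock range. The log2 fold changes were 3.94 (SE 0.083), -4.60 (SE 0.086) and -0.66 (SE 0.079).

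The remaining genes act downstream or alongside. Chac1 (ENSMUSG00000027313.3; chromosome 2, 119351229 to 119354381, plus strand) encodes an enzyme that degrades glutathione and had the largest difference of the 10 between Auxin and either other group. It measured 0.99, 0.724 and 0.699 CPM in Mock, 60.2, 73.3 and 60.4 under Auxin, and 0.439, 0.245 and 0.282 in Reintroduction. The Auxin libraries stood alone, and the washout left 35, 11 and 23 counts per library. The log2 fold changes were 6.30 (SE 0.16), -7.59 (SE 0.18) and -1.29 (SE 0.24), so that Auxin was 79.0-fold above Mock and Reintroduction 193-fold below Auxin.

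Nupr1 (ENSMUSG00000030717.9; chromosome 7, 126623249 to 126630861, minus strand), a small chromatin-associated stress protein, measured 3.20, 2.61 and 3.15 CPM in Mock, 128, 154 and 127 under Auxin, and 6.77, 5.32 and 6.58 in Reintroduction. All Auxin libraries were high, and Reintroduction lay above Mock in every library. Nupr1 had log2 fold changes of 5.51 (SE 0.13), -4.44 (SE 0.12) and 1.07 (SE 0.12).

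Sesn2 (ENSMUSG00000028893.8; chromosome 4, 132492032 to 132510501, minus strand) encodes a leucine sensor that restrains the growth kinase complex mTORC1. It measured 81.3, 77.6 and 77.0 CPM in Mock, 225, 249 and 219 under Auxin, and 40.3, 42.2 and 40.9 in Reintroduction. Auxin was the highest group and Reintroduction the lowest, without overlap. The log2 fold changes were 1.56 (SE 0.059), -2.49 (SE 0.061) and -0.94 (SE 0.059).

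**Figure D2:**
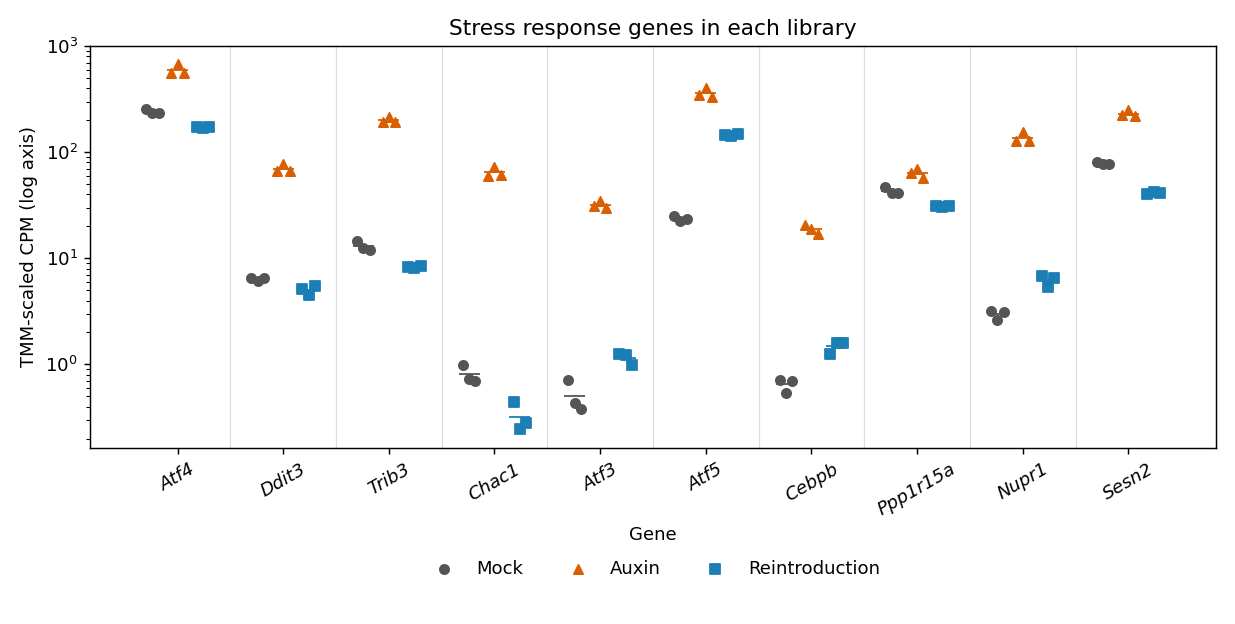
TMM-scaled CPM (y axis, log scale) of the 10 genes (x axis) in each library of Mock (grey circles), Auxin (orange triangles) and Reintroduction (blue squares), with a bar at each group mean. The Auxin libraries are above all others for every gene, from 57.7 to 68.9 CPM for Ppp1r15a and from 60.2 to 73.3 for Chac1, and only Atf5, Atf3, Cebpb and Nupr1 have Reintroduction above Mock.

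Read together in Auxin against Mock, all 10 genes passed the filter on low counts and all 10 were called higher at an adjusted p under 0.05 by edgeR's quasi-likelihood test, beside 38.4% of the 20838 genes tested. Calls in either direction covered 73.2% of genes, and since the genes were selected on this contrast nothing is read from the count. With a fold of at least 2 required as well, 9 of the 10 were called higher, beside 19.8% of genes. The median log2 fold change of the 10 was 3.94, and that of all tested genes was 0.05. In each of the 10 genes every Auxin library exceeded every Mock library, which held for 38.4% of tested genes, and 74.3% had groups without overlap in either direction. Auxin replicate 2 was the highest Auxin library for 9 genes, all except Cebpb, at 1.12 to 1.22 times the mean of the other Auxin libraries. Its trend of level with gene length was flatter (0.013 log2 per doubling) than in Auxin replicates 1 and 3 (0.149 and 0.154). In Mock that trend ran from -0.25 to -0.17. The part of these trends in the differences was not tested, but all 10 stayed called higher with the length trend removed. The summed level of the 10 was 397 to 435 CPM in Mock and 1655 to 1971 CPM in Auxin.

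After the 4.5 h washout, all 10 genes were called lower than in Auxin, beside 25.5% of genes called lower and 50.9% called in either direction. All 10 were also lower by a fold of at least 2, beside 6.82% of genes, and every Reintroduction library was below every Auxin library, as for 29.4% of genes (58.2% without overlap in either direction). The median log2 fold change was -3.73, against 0.003 for all tested genes. The summed level of the 10 was 405 to 416 CPM, a sum in which a higher Atf5 offsets lower Atf4, Sesn2 and Ppp1r15a than in Mock. This comparison shares its Auxin libraries with the one before, so the opposite signs are no independent result.

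Against Mock, Reintroduction left the 10 genes in 2 sets. Atf5, Atf3, Cebpb and Nupr1 were called higher (4 of 10, beside 34.7% of genes), by log2 fold changes of 1.07 to 2.62. The other 6, Atf4, Ddit3, Trib3, Chac1, Ppp1r15a and Sesn2, were called lower (beside 33.4% of genes), by -0.33 to -1.29. Calls in either direction covered 68.1% of genes, and with a fold of at least 2 required as well 5 of the 10 were called, beside 22.4% of genes: the 4 that were higher (15% of genes) and Chac1 among the lower (7.43%). Reintroduction and Mock did not overlap in any of the 10, as for 75.2% of genes, with 4 above (38.2%) and 6 below (37%). Expressed as a share of the log2 rise in Auxin, the fall after washout was 33.2% for Atf5, 75.7% for Cebpb, 79.5% for Atf3 and 80.8% for Nupr1, and 110% for Ddit3 up to 186% for Ppp1r15a among the rest. The direction of all 10 was the same under every alternative, but falls below Mock moved with the scaling and with corrections for gene length and GC. Chac1 moved to -0.91, under 2-fold, with length and GC trends removed together. Atf3 (0.96 without Mock replicate 3) and Nupr1 (0.96 without Mock replicate 2) also moved under 2-fold. Ddit3 was no longer called with scaling by total counts (-0.20), with the length trend removed (-0.08) or with length and GC trends removed together (-0.18). Atf4 stayed called at -0.36, -0.25 and -0.14 under the same settings. Mock libraries had a negative trend of level with gene length (-0.25 to -0.17 log2 per doubling) and Reintroduction libraries a positive one (0.083 to 0.097). The part of these trends in the falls was not tested beyond these corrections.

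**Figure D3:**
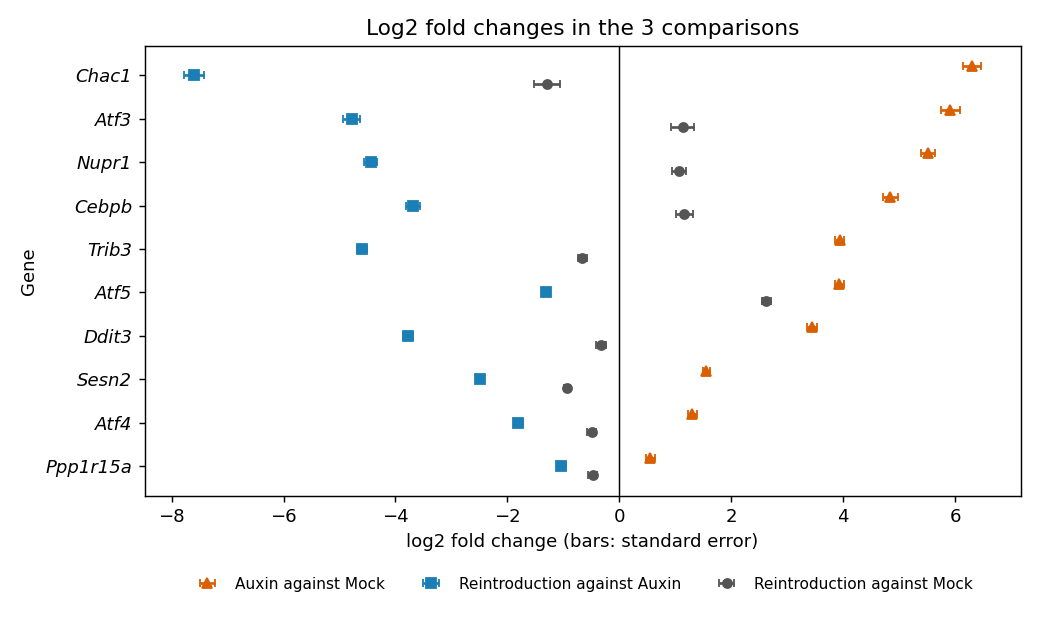
Log2 fold change (x axis; bars, standard error) of the 10 genes (y axis) for Auxin against Mock (orange triangles), Reintroduction against Auxin (blue squares) and Reintroduction against Mock (grey circles), from edgeR with 3 libraries in each group. Auxin against Mock runs from 0.56 for Ppp1r15a to 6.30 for Chac1, and the grey points fall right of 0 for Atf3, Nupr1, Cebpb and Atf5 and left of 0 for the other 6.

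Levels of different genes are comparable only per length, as RPKM (CPM per kilobase of exon, mean ± SD, n = 3). In Mock, Atf4 was the most abundant at 140 ± 6.98 RPKM, followed by Sesn2 at 22.6 ± 0.68, Ppp1r15a at 14.7 ± 1.11 and Atf5 at 11.9 ± 0.64. Trib3, Ddit3 and Nupr1 came next, then Chac1 at 0.491 ± 0.098 and Cebpb at 0.435 ± 0.064, whose libraries overlapped, and Atf3 was the lowest at 0.235 ± 0.082. The spread of levels in Mock therefore runs from an abundant Atf4 messenger to bZIP factors close to silence.

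In Auxin the order changed below Atf4. Atf4 reached 346 ± 39.2 RPKM, Atf5 was the second at 181 ± 19.7, Trib3 the third at 94.4 ± 6.12, and Sesn2 and Nupr1 followed at 66.5 ± 4.52 and 54.2 ± 6.05. Ddit3 (40.8 ± 3.59) and Chac1 (39.5 ± 4.59) could not be ranked, since their libraries overlapped. Ppp1r15a, behind only Atf4 and Sesn2 in Mock, was now behind 7 genes at 21.6 ± 1.92, ahead of Atf3 and Cebpb.

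In Reintroduction, Atf4 (99.3 ± 1.06 RPKM) and Atf5 (73.1 ± 1.34) stood above the rest, with Sesn2 next at 11.8 ± 0.28. Ddit3 and Nupr1 overlapped at 2.96 ± 0.29 and 2.48 ± 0.31, and Chac1 was the lowest at 0.197 ± 0.063. All other neighbours in the 3 orders had libraries that did not overlap. Whether the alignment spanned splice junctions is not given in the sources used here, so these orders, between genes with different exon structures, carry that uncertainty.

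**Figure D4:**
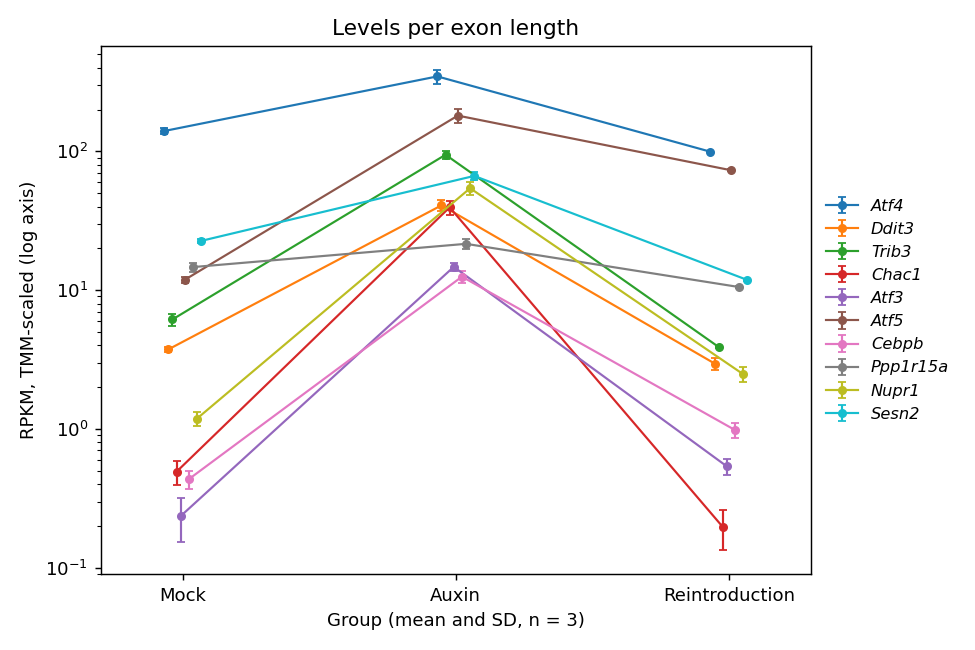
Mean level per exon length (y axis, TMM-scaled RPKM, log scale; bars, SD, n = 3) of the 10 genes in Mock, Auxin and Reintroduction, with a line joining the group means of each gene. Atf4 is the highest in each group (140, 346 and 99.3), Atf5 moves from 11.9 to 181 and stays at 73.1, and Chac1 ends lowest at 0.197.

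The genes with profiles most like the median profile of the 10 over the 9 libraries were Gdf15, Cyp1a1, Bhlhe41, Gm14164, Slc6a9 and B4galnt2. Likeness was the root-mean-square difference of log2(CPM + 0.01) values centred on each gene's mean, among tested genes whose highest group mean was 1 CPM or more. It was 0.178 for Gdf15, a secreted growth factor relative, 0.250 for Cyp1a1, a xenobiotic-oxidising enzyme, and 0.262 for Bhlhe41, a repressor of the circadian clock. The value was 0.289 for Gm14164, 0.321 for Slc6a9, a glycine transporter, and 0.329 for B4galnt2, a glycosyltransferase. The 10 genes themselves differed from their own median profile by 0.306 (Ddit3) to 1.64 (Chac1). Gm14164 (chromosome 2, 152345669 to 152375324, plus strand) lies 1636 bases from Trib3 on the opposite strand. Its Mock level was 0.275 ± 0.036 CPM, its Auxin level 5.65 ± 0.35 and its Reintroduction level 0.513 ± 0.15.

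Beyond the 10, lists compiled around the pathway (the pathway lists) held 88 genes, of which 87 were tested. They include paralogs of the 10 and other bZIP factors, which were listed by family and not as known genes of the response. In Auxin against Mock 80 were called by the same test (73.2% of all genes), of which 64 rose (38.4% of all genes) and 16 fell. In Reintroduction against Auxin 70 were called (50.9%), of which 13 rose and 57 fell (25.5%). In Reintroduction against Mock 65 were called (68.1%), of which 32 rose (34.7%) and 33 fell (33.4%). These shares of all genes also stand beside the counts of each list below. The median log2 fold changes of the 87 genes were 0.87, -0.66 and 0.0003, against 0.05, 0.003 and 0.03 for all tested genes. The lists were compiled with earlier results of these libraries known.

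Upstream of ATF4, messengers of the eIF2 kinases and their inputs differed by less than 2-fold in each comparison. Changes of list genes with an SE are log2 fold changes. In Auxin against Mock 5 of 7 rose and 1 fell, which became 3 and 3 with the length trend removed. Eif2ak3 (PERK, the kinase of the endoplasmic reticulum) rose from 35.4 ± 1.05 to 53.7 ± 1.04 CPM (log2 fold change 0.60, SE 0.059), and Eif2ak4 (GCN2, which senses uncharged tRNA) by 0.49 (SE 0.058). Eif2ak1 (HRI, the heme-regulated kinase) fell by 0.63 (SE 0.055), and Eif2ak2 (PKR, activated by double-stranded RNA) was at -0.27 (SE 0.17) and not called. Dele1, which relays mitochondrial stress to HRI, rose by 0.67 (SE 0.078) and fell after washout by 0.90 (SE 0.079).

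Subunits of eIF2, its exchange factor eIF2B and the constitutive phosphatase partner mostly went the other way. In Auxin against Mock 8 of 9 fell, with Eif2b4 at -1.31 (SE 0.072), Eif2b5 at -1.12 (SE 0.063) and Eif2b1 at -1.08 (SE 0.066), and 1 rose. That one was Ppp1r15b (CReP), the constitutive relative of Ppp1r15a, at 233 ± 6.18 CPM (Mock), 462 ± 34.8 (Auxin) and 207 ± 2.78 (Reintroduction). It rose in Auxin by 0.99 (SE 0.060), beside 0.56 (SE 0.074) for Ppp1r15a. After washout 5 of the 9 rose and 1, Ppp1r15b, fell by 1.16 (SE 0.060).

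Relatives of the 10 genes did not move as one. Of 11 tested paralogs, Ppp1r15b included, 6 rose and 3 fell in Auxin against Mock, and 3 rose and 4 fell after washout. Jdp2, a relative of Atf3, rose from 3.04 ± 0.26 to 23.4 ± 0.61 CPM and returned to 2.62 ± 0.25, and Cebpg, a C/EBP partner of ATF4, went from 29.6 ± 1.51 to 135 ± 15.8 and 46.0 ± 0.62. Sesn3 rose by 1.86 (SE 0.095) and was at -0.22 (SE 0.091) after washout, where it was not called, although some alternatives called it. By contrast, Sesn1 was called lower in Auxin (-0.19, SE 0.061), and Trib1 and Trib2 fell by 0.53 (SE 0.078) and 1.88 (SE 0.17) while Trib3 was 15.3-fold higher. Trib1 and Trib2 then rose after washout by 1.81 (SE 0.078) and 1.30 (SE 0.18). Of 21 other bZIP factors tested, 14 rose and 3 fell in Auxin (1 fell with scaling by total counts). After washout 1 rose and 12 fell. That list counts again Jdp2, Cebpg and the further C/EBP paralogs, so it is not separate from the paralog list.

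Targets known for ATF4 were called higher in Auxin in nearly every case, beside 38.4% of all tested genes. After washout 25.5% of all tested genes were called lower. All 10 metabolic enzymes rose, with a median log2 fold change of 1.32, and all 10 fell after washout, with a median of -1.14. Aldh1l2, a mitochondrial folate enzyme, rose from 0.937 ± 0.13 to 24.4 ± 2.36 CPM and stood at 7.92 ± 0.61 after washout, and Cth, which makes cysteine, went from 46.6 ± 2.38 to 183 ± 8.02 and 61.8 ± 3.03. All 9 amino acid transporters rose (median 1.05) and fell (median -1.53), among them Slc1a4, a neutral amino acid carrier, by 2.99 (SE 0.076) and -4.03 (SE 0.083). Of 11 aminoacyl-tRNA synthetases 10 rose (median 0.68), and all 11 fell (median -1.10), with Cars1 at 62.9 ± 1.16, 163 ± 12.7 and 45.2 ± 0.61 CPM.

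Secreted and growth-limiting targets had the largest median change of these lists, with 8 of 8 rising in Auxin (median log2 fold change 5.97, or 5.76 with Fgf21 at its bound because Mock held 0 counts, against a floor of 3 counts over the group) and 8 of 8 falling after washout (median -4.32). Stc2, a secreted glycoprotein, went from 1.42 ± 0.20 to 101 ± 6.63 and 6.39 ± 1.34 CPM. Vegfa, the angiogenic factor, went from 2.3 ± 0.16 to 127 ± 12.8 and 22.2 ± 2.97 CPM. Of 6 genes linked to CHOP, 5 rose and 1 fell in Auxin, and 2 rose and 4 fell after washout. Pmaip1, which encodes the apoptosis factor NOXA, rose by 1.43 (SE 0.058) in Auxin and was still 1.64 (SE 0.059) above Mock after washout, whereas Ddit3 was at -0.33 (SE 0.089). Among the genes named from these lists, Eif2ak1, Eif2ak2, Eif2ak3, Dele1, Eif2b4, Ppp1r15b, Cebpg, Aldh1l2, Slc6a9 and Cars1 share exon bases with other genes, as do Bhlhe41, Gm14164 and B4galnt2.

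**Figure D5:**
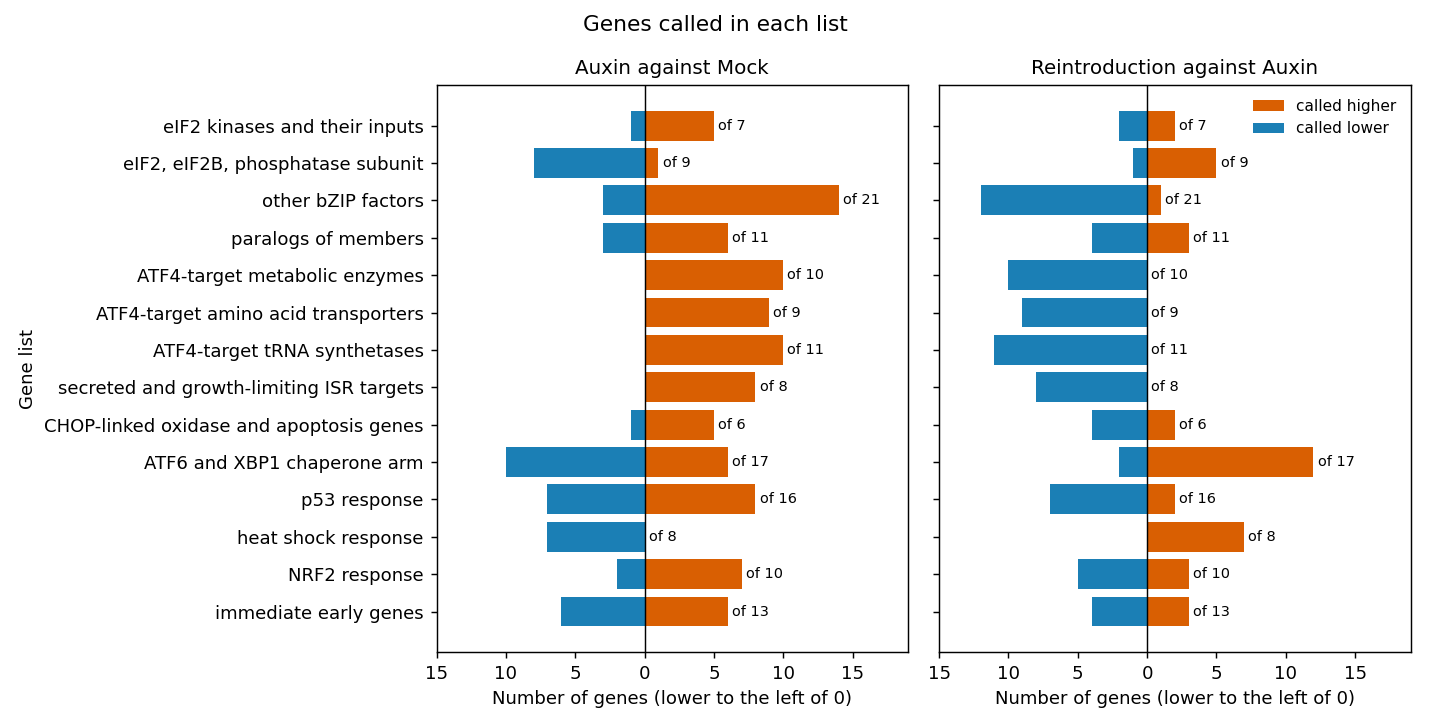
Number of genes called higher (orange, right of 0) and lower (blue, left of 0) at an adjusted p under 0.05 in each list (y axis), for Auxin against Mock and Reintroduction against Auxin, with the number tested beside each bar. The enzyme, transporter, synthetase and secreted lists have 10, 9, 10 and 8 genes higher in Auxin and 10, 9, 11 and 8 lower after washout, while the heat shock list has 7 lower and then 7 higher.

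Lists of other stress programmes are set beside the 10 genes by their counts. Some genes of the lists above are counted again in them, Xbp1 and Sesn1 among these. Over all tested genes 73.2% were called in Auxin against Mock and 50.9% after washout, with 52.4% and 50% of those calls higher. Nothing is therefore read from lists split about evenly between rises and falls. Of 17 genes of the ATF6 and XBP1 chaperone arm of the endoplasmic reticulum, 6 rose and 10 fell in Auxin, and 12 rose and 2 fell after washout. The median log2 fold changes of that list were -0.34 and 0.65, so the gene named next went against most of it. Herpud1, a degradation factor of that organelle that ATF4 also drives, rose by 2.57 (SE 0.068) and fell by 3.03 (SE 0.070). Of 8 heat shock genes 7 fell in Auxin and 7 rose after washout, with Hspa8 at 1873 ± 36.7, 598 ± 67.8 and 2529 ± 40.9 CPM and Hspd1 at 944 ± 6.05, 316 ± 22.2 and 721 ± 12.4. Both share exon bases with other genes. The p53 list of 16 had 8 rising and 7 falling in Auxin (9 and 4 with scaling by total counts, 8 and 4 with the length trend removed), and the NRF2 list of 10 had 7 and 2. Of 13 immediate early genes tested 6 rose and 6 fell (3 fell with scaling by total counts). Nr4a1 had a log2 fold change of -1.31 in Auxin against Mock. Jun, a bZIP partner of Atf3 that also shares exon bases with another gene, rose by 2.51 (SE 0.11).

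Markers of other cell types differed between the groups as well. Primitive endoderm markers (8 genes) summed to 27.9 to 29.2 CPM in Mock, 53.8 to 55.9 in Auxin and 45.6 to 47.9 in Reintroduction, and trophoblast markers (6) to 62.6 to 65.7, 107.6 to 118.7 and 109.5 to 115.2. Fibroblast markers (8, of which 2 held 0 counts in Mock and 3 in Auxin) summed to 21.9 to 24.6, 44.2 to 53.5 and 41.0 to 42.2 CPM, and neural and mesoderm markers (8, 1 at 0 counts in each group) to 109.3 to 117.1, 70.7 to 87.4 and 68.2 to 70.6. The summed endoderm, trophoblast and fibroblast markers stayed above Mock in Reintroduction, but single markers went both ways. In that comparison 4 of 8 tested endoderm markers were called higher and 1 lower. The counts were 4 and 1 of 5 for trophoblast and 1 and 2 of 4 for fibroblast markers, beside 34.7% and 33.4% of all genes. In Auxin against Mock 3 of the 5 trophoblast markers were called higher and 2 lower. These sums rest on few genes, since 6 of 8 fibroblast markers were under 1 mean CPM in each group, as were 5, 2 and 4 of 8 endoderm markers in Mock, Auxin and Reintroduction and 3, 4 and 4 of 6 trophoblast markers. The collagen genes Col1a1, Col1a2 and Col3a1, which define fibroblasts, were among those under 1 CPM, and Thy1 made up most of that sum (17.9, 41.2 and 37.5 mean CPM). The share of counts from mitochondrial genes was 3.79% to 4% in Mock and Auxin and 4.58% to 4.8% in Reintroduction. The part of these shifts in the levels of the 10 genes was not tested.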

How the data were processed

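Polyadenylated RNA was measured in 9 libraries, 3 each of Mock, Auxin and Reintroduction. The deposited values are raw counts per gene, made with featureCounts 2.0.6 over exons of an mm10 annotation, in paired mode and without a strand setting, per the file headers. Pairs were not counted as 1, so each mate counts. In every library more genes had an even count (2 to 10) than an odd one (1 to 9). The submitters' processing notes name Trim Galore 0.6.10, FastQC 0.12.1, Bowtie2 2.5.3 and SAMtools 1.20, and their roles are not given in the sources used here.

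Symbols matched 48058 of 48440 genes by identifier. GC content came from the longest GENCODE M21 transcript (99.21% of genes). Counts were scaled by TMM factors (0.905 to 1.08), filtered with filterByExpr (20838 genes) and fitted with edgeR 4.0.16 (quasi-likelihood, group as the term, all 9 libraries, common biological variation 9.15%) under R 4.3.3 with limma 3.58.1. Tests were two-sided, p-values were adjusted by Benjamini-Hochberg over all genes tested, and the threshold for a call was an adjusted p under 0.05. The 10 genes and the lists were chosen with earlier results of these data known. From each list the text names up to 3 called genes with the smallest p-value in Auxin against Mock and a mean of at least 1 CPM, any eIF2 kinase or paralog, and the 6 genes most like the 10. Fgf21, Inhbe, Adm2, Suz12, Nup62, Il4i1, Mars and Tmem189 fall outside that rule and were named after their values were seen.

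On simulated counts of 20838 genes with 200 changed 2-fold, the test recovered 77.5% in Auxin against Mock (6.63% false calls). It recovered 69% for Reintroduction against Auxin (6.76% false) and 73% for Reintroduction against Mock (5.19% false). In the measured counts 73.2% of genes were called in Auxin against Mock, far more than were changed in the simulation. Whether the recovered and false shares hold with so many genes called was not tested. Alternatives were DESeq2 1.42.0 size factors and Wald test, total-count scaling, other filters (none, or 1 CPM in 3 libraries), only the groups compared, a replicate block, counts halved, trends of length and GC removed, a fold of 2, and each library left out.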

Additional observations from a re-analysis of the deposited data

How the results depend on the processing

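None of the 30 fold changes of the 10 genes changed sign under any of the 19 alternatives, and 3 lost a call, all for Ddit3 in Reintroduction against Mock: -0.20 with scaling by total counts, -0.08 with the length trend removed and -0.18 with length and GC trends removed, against -0.33. Requiring a fold of at least 2 as well left 5 of the 10 genes called in Reintroduction against Mock, and lowered the pathway lists from 80 to 40 genes in Auxin against Mock, from 70 to 36 for Reintroduction against Auxin and from 65 to 14 for Reintroduction against Mock. Leaving out each library in turn kept the calls of the 10 genes at 10 in each comparison. Scaling by total counts moved the all-gene median from 0.05 to 0.26 on the log2 scale in Auxin against Mock and from 0.03 to 0.16 in Reintroduction against Mock, and the share of calls that were higher from 52.4% to 63.2% in the first. Without a filter on low counts, 47.6% of 32989 genes were called in Auxin against Mock, 31.6% for Reintroduction against Auxin and 43.1% for Reintroduction against Mock. Same-numbered replicates did not deviate together (correlations of -0.17 to 0.055). This shows no pairing by number, but cannot exclude shared handling whose effect is small beside the spread between libraries. With the replicate number as a block, all 10 genes were called in each comparison, and the calls over all genes went from 15257 to 14808, from 10613 to 9829 and from 14191 to 13639. Chac1 in Reintroduction rests on 11 to 35 counts per library, and with 3 libraries in a group no test for an outlying library was made.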
